A study of Drosophila melanogaster with 15 samples.

Results

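Proneural and endocrine fate factors of the fly were followed through sorted midgut progenitors. They are scute (sc), asense (ase), achaete (ac), lethal of scute (l(1)sc), target of Poxn (tap), dimmed (dimm), prospero (pros), mirror (mirr), daughterless (da) and extramacrochaetae (emc). The members were named by symbol and looked up by FlyBase identifier among the 17558 genes of the deposited table, and 9 of the 10 had a row. The identifier of da in the annotation used here, FBgn0267821 (2L:10388105-10393228), is not among the table's identifiers, and da was not analysed here. Of the 9 measured members, 6 (sc, tap, dimm, pros, mirr and emc) reached 1 FPKM in at least 3 libraries and entered the tests. The other 3 (ase, ac and l(1)sc) stayed below 1 FPKM in all 15 libraries. FPKM values divide the reads of a gene by its length and by the size of the library, so levels of different genes can be set side by side.

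RNA was sequenced from about 10000 green fluorescent cells per library, sorted from adult midguts on day 7 and labelled intestinal progenitor cells. The 15 libraries fall into 5 groups of 3. By their labels these are flies with RNAi against ttk, which encodes the repressor Tramtrack (ttk-RNAi); flies overexpressing the bHLH-O repressor gene dpn (dpn OE); flies overexpressing Nicd, the intracellular domain of Notch (Nicd OE); flies overexpressing seq, which encodes a zinc-finger factor, together with Nicd (seq&Nicd OE); and wild-type controls (Ctrl). All groups carry the green fluorescent label used for the sort, and the labels name no driver line, transgene insertion or batch. Nothing in the labels says that replicates came from separate flies, so p-values measure the spread between these libraries alone, and it may be technical.

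The transcript named by the label was read first. ttk stood at 100 ± 12.9 FPKM in the libraries labelled ttk-RNAi, against 30.2 ± 17.0 FPKM in Ctrl (SD, n = 3 each), so it was higher where the label names RNAi (limma, adjusted p = 0.000888). The dpn transcript was far more abundant in ttk-RNAi (290 ± 21.6 FPKM, limma, adjusted p = 1.9e-10) and seq&Nicd OE (225 ± 65.6 FPKM, adjusted p = 1.67e-09) than in the libraries labelled dpn OE (6.09 ± 1.30 FPKM, adjusted p = 0.00823), against 2.37 ± 0.803 FPKM in Ctrl. Its values are uncertain, as 59.3% of its exon bases are shared with an antisense gene. The Notch gene, N, was lower in both groups labelled Nicd OE, at 21.8 ± 6.39 FPKM in Nicd OE (limma, adjusted p = 0.00122) and 18.3 ± 5.47 FPKM in seq&Nicd OE (adjusted p = 0.000271), against 63.0 ± 18.5 FPKM in Ctrl. The gene seq was listed at 0 in every library and shares all its exon bases with other genes, so its label could not be checked. The values of ttk and N thus go against the labels, and every result below, directions included, is for libraries so labelled. Estimated depth was 51.1 to 56.0 (in units of 1e6 reads) in ttk-RNAi and 24.7 to 38.4 in the other groups. The share of reads assigned to genes was from 33.7% to 48.5% in Nicd OE and from 39.6% to 48.9% in seq&Nicd OE, against 56.4% to 62.5% in Ctrl. Correlation between libraries of one group, across genes, was lowest in Ctrl, at 0.913 to 0.971.

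Of the progenitor markers, 5 of 6 had a row in the table (esg had none), and their summed level in Ctrl was 567 to 1319 FPKM. Most of that sum came from 1 gene, E(spl)mbeta-HLH, with a mean of 662 FPKM in Ctrl. Hormone and secretory markers of enteroendocrine cells, the hormone-making cells of the gut, were abundant too. Their 11 genes, none of which is a member, had sums from 900 to 1033 FPKM in ttk-RNAi, from 3065 to 4699 in dpn OE, from 3120 to 4686 in Nicd OE and from 4654 to 7162 in seq&Nicd OE, against 12752 to 61750 in Ctrl. The peptide gene NPF made up most of the Ctrl sum. The Ctrl libraries therefore carried much enteroendocrine transcript beside their progenitor label. In bulk RNA, fewer cells of a type and less RNA per cell cannot be told apart, and that holds for every member below.

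Proneural proteins are basic helix-loop-helix (bHLH) activators that pair with the broadly expressed partner Da and turn on genes of neural precursors. Emc, an HLH protein with no basic region, binds these activators and keeps them off DNA. Notch signalling turns on repressors of the bHLH-O class, which silence proneural genes in neighbouring cells. In the adult midgut, stem cells make absorptive enterocytes through high Notch activity and enteroendocrine cells through low Notch activity. Scute starts the endocrine branch there, the homeodomain protein Prospero marks it, and Tap, Mirr and Dimm act in enteroendocrine cells or other peptide-making cells.

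Scute is the activator that starts the endocrine branch, and its gene (FBgn0004170, X:396060-397497 of BDGP6.54, 1 exon) was highest in Ctrl and almost silent in Nicd OE. Its values were 3.05, 3.02 and 3.32 FPKM in ttk-RNAi and 0.510, 0.899 and 0.750 FPKM in dpn OE. They were 0.0498, 0.0516 and 0.122 FPKM in Nicd OE, from 2, 2 and 6 reads, and 0.445, 0.648 and 1.05 FPKM in seq&Nicd OE. In Ctrl they were 12.5, 3.38 and 6.08 FPKM. Every library of the 4 manipulated groups was below every Ctrl library, and Ctrl replicate 1 stood well above the other two. Among the manipulated groups, ttk-RNAi was highest and Nicd OE lowest with no overlap, while dpn OE and seq&Nicd OE overlapped.

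Tests were made with limma on log2(FPKM + 1), adjusted over all 8209 tested genes by Benjamini-Hochberg, and a gene was called at an adjusted p under 0.05. On this scale sc fell by 2.80 in Nicd OE (SE 0.28, adjusted p = 4.68e-06), by 2.13 in dpn OE (adjusted p = 2.95e-05) and by 2.14 in seq&Nicd OE (adjusted p = 2.69e-05). The ratio of means was 98.0-fold lower in Nicd OE, where sc had 10 reads in all, and 10.2-fold lower in dpn OE. Without Ctrl replicate 1 these folds were 63.4-fold and 6.57-fold. In seq&Nicd OE the ratio of means was 10.2-fold lower, and 6.63-fold without that library. In ttk-RNAi sc fell by 0.86 (SE 0.28, adjusted p = 0.0217), a ratio of 2.34-fold that was 1.51-fold without Ctrl replicate 1. That call was lost without Ctrl replicate 1 (adjusted p = 0.0868), without ttk-RNAi replicate 1 or 2 (0.0579 in each case), with a pseudocount of 0.1 (0.0576), with FPKM scaled to equal sums (0.063) and in a fit of the 2 groups alone (0.124).

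Between the Notch groups, sc was 9.55-fold higher in seq&Nicd OE than in Nicd OE as a ratio of means, with no overlap of libraries. On log2(FPKM + 1) the difference was 0.66 (95% interval 0.06 to 1.26, adjusted p = 0.122), which did not pass. The level of both groups lies near or below the pseudocount of 1, where the scale compresses differences. In 17 of 23 other settings the sc difference did not pass either, with an adjusted p of up to 0.359. It did pass with a pseudocount of 0.1 (adjusted p = 0.000822) and with median scaling (0.0223). The same held without Ctrl replicate 1 or 2 (0.0143 and 0.0246) and in a fit of these groups alone (0.0108). With a replicate block fitted within these groups, chosen after seeing the data, the adjusted p was 0.00662. The labels do not say that replicate numbers pair libraries. Same-numbered libraries deviated together at r = 0.2, 0.21 and 0.426, and seq&Nicd OE replicate 2 was most like Nicd OE replicate 1.

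**Figure D1:**
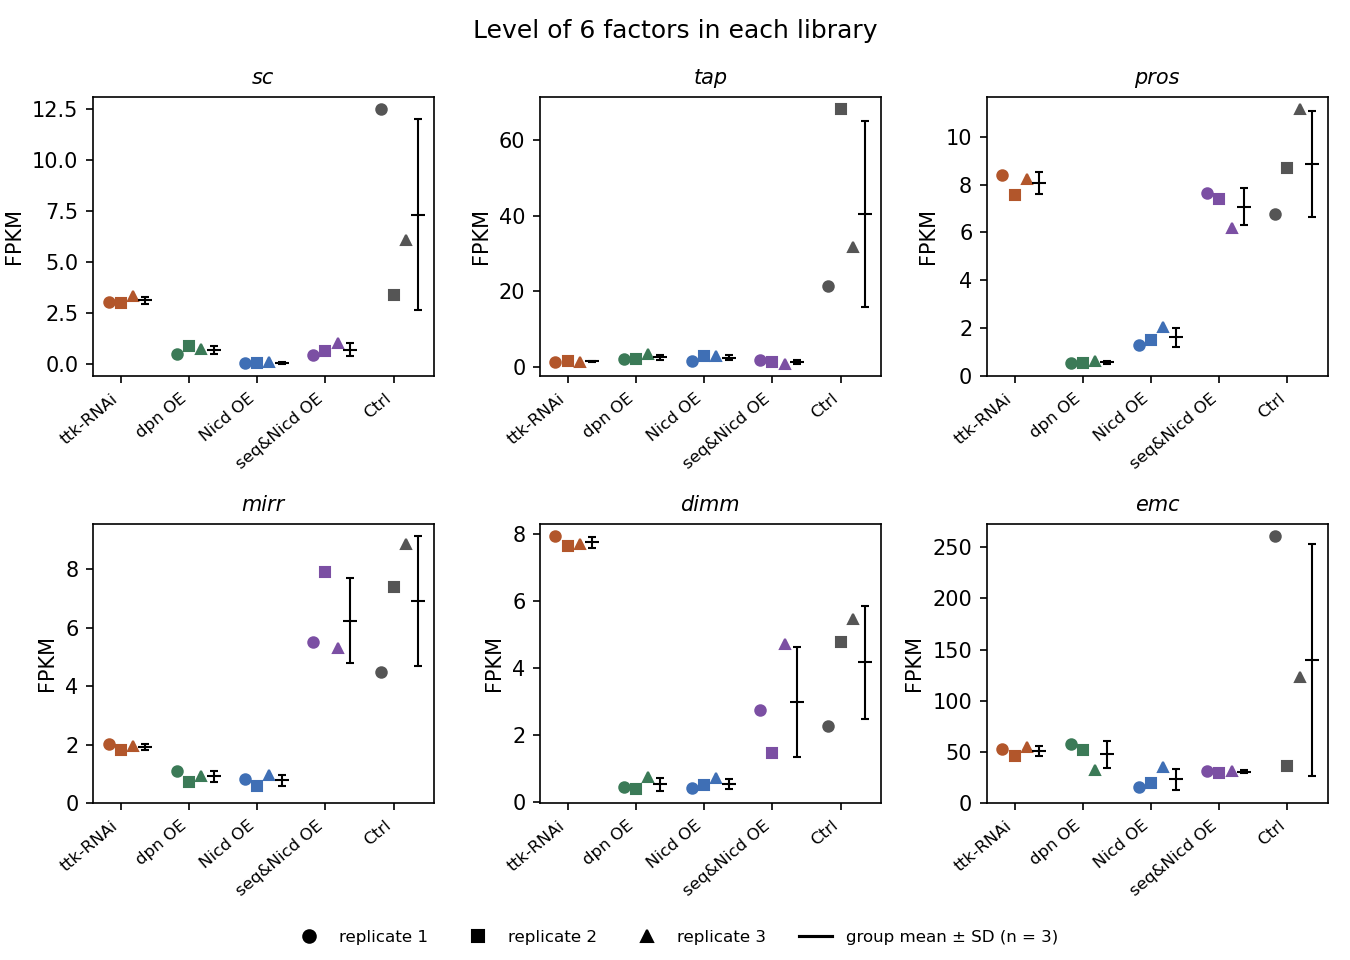
FPKM of the 6 tested members in each of the 15 libraries (points), on linear axes, with the 4 manipulated groups left of Ctrl. Bar marks give the group mean with its SD (n = 3). Every sc and tap point of the manipulated groups lies below every Ctrl point, while pros and mirr points of seq&Nicd OE overlap those of Ctrl.

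The other genes of the achaete-scute complex lie beside sc on the X chromosome, at gaps of 25.1 kb from ac to sc, 12.2 kb from sc to l(1)sc and 49.9 kb from l(1)sc to ase. Each has a single exon and shares no exon bases with another gene. They had at most 27 reads per library, so reads are given with each value. The counting limits below speak for counting error alone, because the RNA was amplified and the reads carry no molecular identifiers.

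Asense (FBgn0000137, X:460747-463176), a bHLH factor known from neural precursors, was low in all groups and highest in Ctrl. It had 7, 5 and 5 reads in ttk-RNAi (0.0563, 0.0372 and 0.0368 FPKM) and 2, 0 and 3 reads in dpn OE (0.0318, 0 and 0.0370 FPKM). It had 0, 1 and 1 reads in Nicd OE (0, 0.0153 and 0.0121 FPKM) and 6, 12 and 4 reads in seq&Nicd OE (0.0879, 0.200 and 0.0476 FPKM). In Ctrl it had 27, 18 and 21 reads (0.290, 0.295 and 0.266 FPKM). The Ctrl libraries were close together and above all 12 others, and seq&Nicd OE was above Nicd OE with no overlap. The mean was 6.53-fold lower in ttk-RNAi than in Ctrl and 2.54-fold lower in seq&Nicd OE, or 4.19-fold without seq&Nicd OE replicate 2. It was 12.4-fold lower in dpn OE (95% counting interval 5.30 to 38.1, from 5 reads) and 31.1-fold lower in Nicd OE (8.61 to 257, from 2 reads; 47.0-fold without Nicd OE replicate 2). Because ase is below the level filter it has no test in the tested set. In limma with no filter, over 15953 genes, its adjusted p was 5.26e-05 in ttk-RNAi, 7.26e-05 in dpn OE, with 7.35e-05 in Nicd OE and then 0.00172 in seq&Nicd OE, and 0.0319 for seq&Nicd OE against Nicd OE.

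Lethal of scute (FBgn0002561, X:409721-410817), a proneural bHLH activator, had reads in every library of ttk-RNAi and next to none elsewhere. It had 12, 17 and 12 reads in ttk-RNAi (0.214, 0.280 and 0.195 FPKM). It had 1, 0 and 0 reads in dpn OE, 0, 0 and 1 reads in Nicd OE and 1, 3 and 1 reads in seq&Nicd OE, against 1, 0 and 0 in Ctrl. The ttk-RNAi libraries stood above the other 12, and they were also the most deeply sequenced. Per length and depth the ttk-RNAi mean was 29.0-fold that of Ctrl (95% counting interval 5.21 to 1146, from 1 read in Ctrl). In limma with no filter the adjusted p was 1.8e-05 for ttk-RNAi and did not pass in any other comparison. Its neighbours sc and ase were lower in ttk-RNAi than in Ctrl, so l(1)sc ran the other way from them.

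Achaete (FBgn0000022, X:370031-370947), which shares its bristle role with sc, was close to the limit of detection. It had no read in ttk-RNAi or dpn OE, 2, 1 and 1 reads in Nicd OE and 1, 0 and 0 reads in seq&Nicd OE, against 1, 0 and 0 in Ctrl. One read was worth 0.0195 to 0.0442 FPKM for this gene, and no fold is given at this depth.

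**Figure D2:**
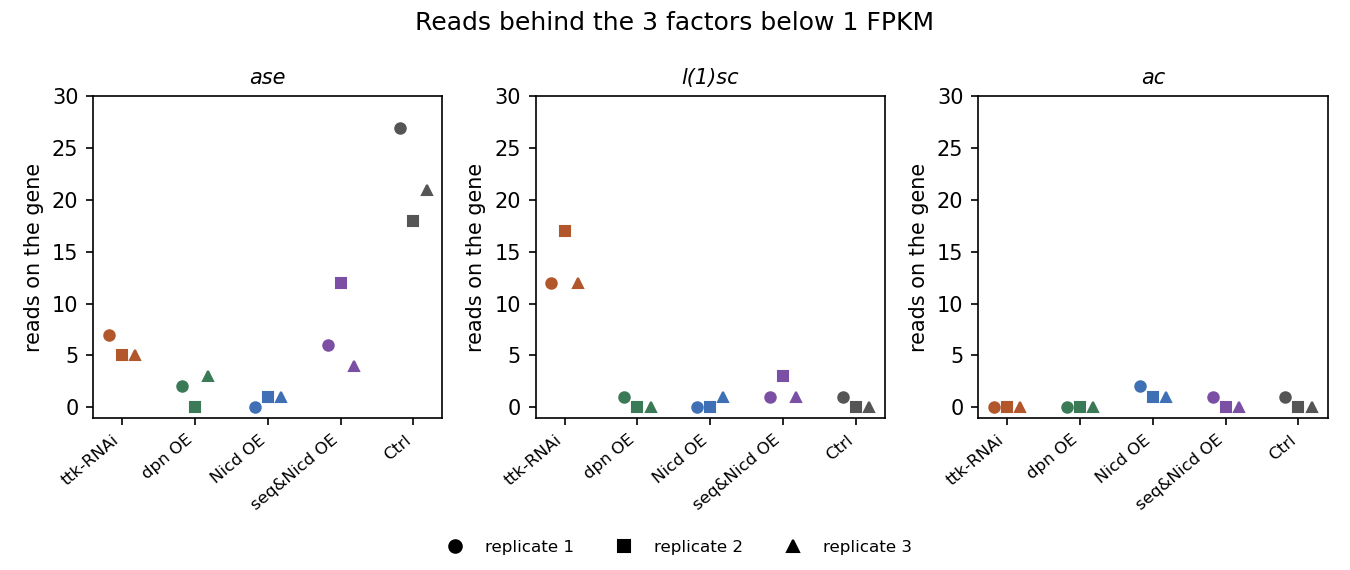
Reads recovered from FPKM for ase, l(1)sc and ac in each library (points), with the 4 manipulated groups left of Ctrl. Ctrl has 18 to 27 reads of ase, ttk-RNAi has 12 to 17 reads of l(1)sc, and no library has more than 2 reads of ac.

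Extramacrochaetae (FBgn0000575, 3L:749400-753492, 2 exons), the inhibitor of these activators, was the most abundant member in every group. Its values were 53.0, 45.8 and 55.0 FPKM in ttk-RNAi and 58.0, 52.5 and 32.9 FPKM in dpn OE. They were 15.5, 19.6 and 35.3 FPKM in Nicd OE and 31.6, 29.7 and 31.6 FPKM in seq&Nicd OE. In Ctrl they were 260.5, 35.9 and 123 FPKM. Ctrl spanned 7.25-fold, the widest of the 6 tested members, and its replicate 2 lay among the manipulated libraries.

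The gene emc fell by 2.20 on the log2 scale in Nicd OE (SE 0.50, adjusted p = 0.00325) and by 1.73 in seq&Nicd OE (adjusted p = 0.0144). As ratios of means these were 5.96-fold and 4.51-fold, or 3.39-fold and 2.56-fold without Ctrl replicate 1. The seq&Nicd OE call was lost without that library (adjusted p = 0.0685), in a fit of the 2 groups alone (0.079) and with equal FPKM sums (0.13), and the Nicd OE call was lost with equal sums (0.0501). In ttk-RNAi the difference was -1.03 (95% interval -2.09 to 0.04, adjusted p = 0.108) and in dpn OE -1.16 (-2.23 to -0.10, adjusted p = 0.0591), and neither passed. Both passed without Ctrl replicate 2 (adjusted p = 0.000772 and 0.000421), under median scaling (0.00831 and 0.0016), and again under quantile normalization (0.015 and 0.0082), and dpn OE also with a stricter level filter (0.0482). Between seq&Nicd OE and Nicd OE the difference was 0.47 (-0.60 to 1.54, adjusted p = 0.576).

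Activator and inhibitor were set against each other within each library, where scaling drops out. The level of sc was 5.75%, 6.59% and 6.03% of that of emc in ttk-RNAi and 0.880%, 1.71% and 2.28% in dpn OE. It was 0.321%, 0.264% and 0.347% in Nicd OE and then 1.41%, 2.18% and 3.31% in seq&Nicd OE, against 4.79%, 9.39% and 4.95% in Ctrl. The ttk-RNAi shares lay inside the Ctrl range, although sc itself did not. They were above Ctrl replicates 1 and 3 and below replicate 2 alone, so their place in that range rests on 1 library. The 9 libraries of the other groups lay below every Ctrl library, with Nicd OE lowest and apart from the rest.

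Prospero (FBgn0004595, 3R:11328480-11407627), the homeodomain factor that marks enteroendocrine cells, stood at levels overlapping Ctrl in ttk-RNAi and seq&Nicd OE, and was low in dpn OE and Nicd OE. Its values were 8.41, 7.57 and 8.25 FPKM in ttk-RNAi and 0.529, 0.523 and 0.628 FPKM in dpn OE. They were 1.27, 1.5 and 2.03 FPKM in Nicd OE and 7.67, 7.39 and 6.19 FPKM in seq&Nicd OE, against 6.76, 8.70 and 11.2 FPKM in Ctrl. The dpn OE libraries were the lowest of all and did not overlap those of Nicd OE. The gene fell by 2.64 on the log2 scale in dpn OE (SE 0.20, adjusted p = 4.85e-07), a ratio of 15.9-fold, and by 1.91 in Nicd OE (adjusted p = 5.3e-06), a ratio of 5.55-fold. It was higher in seq&Nicd OE than in Nicd OE by 1.64 (SE 0.20, adjusted p = 1.01e-05), a ratio of 4.43-fold. Against Ctrl the difference was -0.10 in ttk-RNAi (95% interval -0.51 to 0.32, adjusted p = 0.709) and -0.27 in seq&Nicd OE (-0.69 to 0.15, adjusted p = 0.307).

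Mirror (FBgn0014343, 3L:12693639-12710249), a homeodomain factor of the Iroquois family, followed pros in the Notch groups but not in ttk-RNAi. Its values were 2.02, 1.83 and 1.95 FPKM in ttk-RNAi and 1.10, 0.743 and 0.923 FPKM in dpn OE. They were 0.819, 0.591 and 0.958 FPKM in Nicd OE and 5.49, 7.90 and 5.29 FPKM in seq&Nicd OE, against 4.47, 7.38 and 8.84 FPKM in Ctrl. The seq&Nicd OE libraries lay within the Ctrl range, and the ttk-RNAi libraries lay between Ctrl and the pair of low groups, dpn OE and Nicd OE, which overlapped. On the log2 scale mirr fell by 1.39 in ttk-RNAi (SE 0.21, adjusted p = 7.96e-05), by 2.001 in dpn OE (adjusted p = 6.42e-06) and by 2.10 in Nicd OE (adjusted p = 5.24e-06). It was higher in seq&Nicd OE than in Nicd OE by 2.001 (SE 0.21, adjusted p = 3.18e-06), a ratio of 7.89-fold. Against Ctrl the seq&Nicd OE difference was -0.10 (95% interval -0.56 to 0.35, adjusted p = 0.743).

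The ratio of pros to mirr within a library shows the split between them. It was 4.15, 4.14 and 4.23 in ttk-RNAi, 0.480, 0.704 and 0.680 in dpn OE, while it was 1.55, 2.53 and 2.12 in Nicd OE and then 1.40, 0.935 and 1.17 in seq&Nicd OE, against 1.51, 1.18 and 1.26 in Ctrl. All ttk-RNAi and Nicd OE libraries lay above Ctrl and all dpn OE libraries below it, while seq&Nicd OE overlapped Ctrl.

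**Figure D3:**
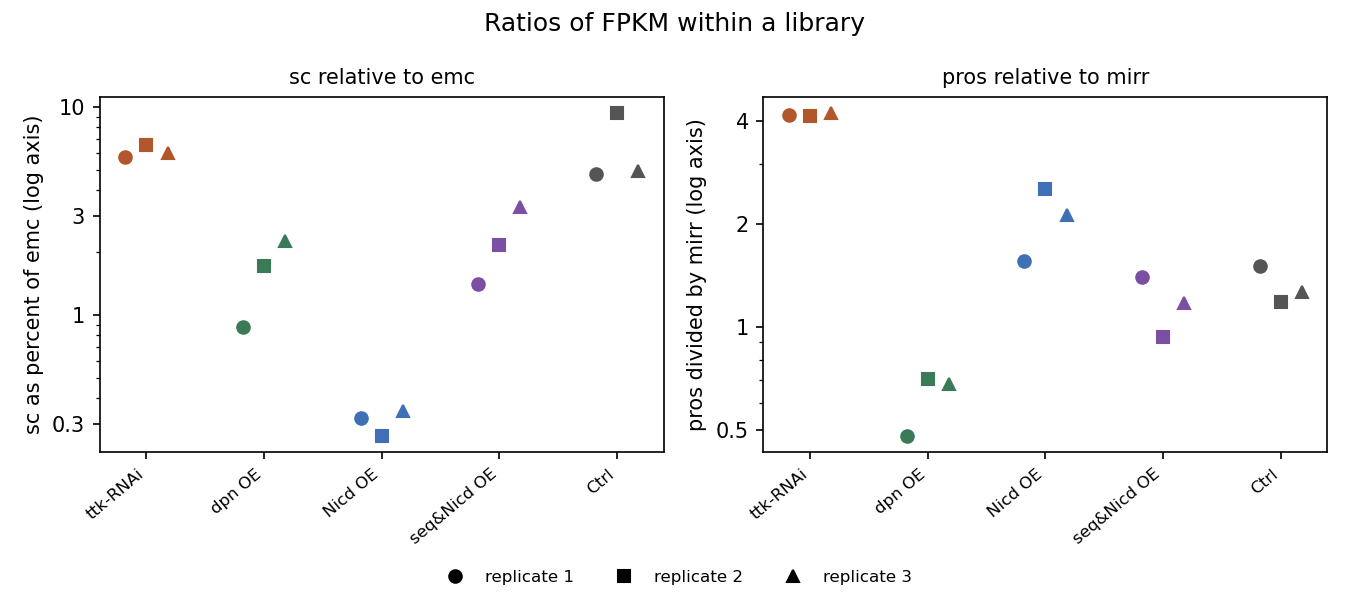
Level of sc as a percentage of emc, and ratio of pros to mirr, in each library (points, both panels with log axes), with the 4 manipulated groups left of Ctrl. Nicd OE has the lowest share of sc, at 0.264% to 0.347%, and ttk-RNAi the highest ratio of pros to mirr, at 4.14 to 4.23.

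Tap (FBgn0015550, 3L:17359682-17361811, 1 exon), a bHLH factor of the neurogenin type, was the member with high values in Ctrl alone. Its values were 1.37, 1.74 and 1.49 FPKM in ttk-RNAi and 2.26, 2.13 and 3.37 FPKM in dpn OE. They were 1.77, 2.87 and 2.87 FPKM in Nicd OE and 1.94, 1.47 and 0.950 FPKM in seq&Nicd OE, against 21.5, 68.1 and 31.8 FPKM in Ctrl. The lowest Ctrl library stood above the highest manipulated one, and Ctrl replicate 2, the library with the highest NPF, was also highest in tap. On the log2 scale tap fell by 3.88 in ttk-RNAi (SE 0.32, adjusted p = 8.16e-08), by 3.39 in dpn OE (adjusted p = 2.5e-06), by 3.42 in Nicd OE (adjusted p = 2.57e-06) and by 3.94 in seq&Nicd OE (adjusted p = 2.07e-07). The ratios of means were 26.4-fold, 15.7-fold, 16.2-fold and 27.9-fold lower in that order, and 17.4-fold, 10.3-fold, 10.7-fold and 18.4-fold without Ctrl replicate 2. Between seq&Nicd OE and Nicd OE tap differed by -0.52 (95% interval -1.20 to 0.17, adjusted p = 0.301), and it was not called there.

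Dimmed (FBgn0023091, 2L:21331756-21342155), a bHLH factor that promotes the peptide-secretory machinery, was highest in ttk-RNAi. Its values were 7.92, 7.62 and 7.68 FPKM in ttk-RNAi and 0.445, 0.393 and 0.736 FPKM in dpn OE. They were 0.413, 0.506 and 0.713 FPKM in Nicd OE and 2.74, 1.48 and 4.71 FPKM in seq&Nicd OE, against 2.25, 4.78 and 5.44 FPKM in Ctrl. The groups dpn OE and Nicd OE overlapped at the low end, seq&Nicd OE overlapped Ctrl, and ttk-RNAi stood above all the others. On the log2 scale dimm fell by 1.71 in dpn OE (SE 0.28, adjusted p = 0.000149) and by 1.69 in Nicd OE (adjusted p = 0.000345). It was higher in seq&Nicd OE than in Nicd OE by 1.29 (SE 0.28, adjusted p = 0.00312), a ratio of 5.47-fold, and differed from Ctrl there by -0.40 (95% interval -0.99 to 0.20, adjusted p = 0.289). In ttk-RNAi it rose by 0.82 (SE 0.28, adjusted p = 0.0259), a ratio of 1.86-fold. The call did not hold under median scaling (adjusted p = 0.2), quantile normalization (0.187), a pseudocount of 0.1 (0.0612) and a fit of the 2 groups alone (0.0555). It was also lost without any one ttk-RNAi replicate (0.0586 to 0.067) and without Ctrl replicate 1 (0.12).

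Set together, each tested member could pass the level filter on its Ctrl libraries by themselves, so a fall in the other groups was easier to record than a rise, and the counts below describe the 6 tested members, not all 10. In ttk-RNAi 1 member was called higher and 3 lower, where 30.7% of all tested genes were called higher and 13.7% lower. In dpn OE none was called higher and 5 lower, against backgrounds of 44.6% and 12.5%. In Nicd OE none was called higher and all 6 tested members were lower, against 5.07% and 34.2%. In seq&Nicd OE none was called higher and 3 (sc, tap and emc) lower, against 13.3% and 21.2%. In seq&Nicd OE relative to Nicd OE 3 (dimm, pros and mirr) were called higher and none lower, against 15.8% and 3.85%.

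The median log2 difference of the 6 tested members was -0.94 in ttk-RNAi, -2.06 in dpn OE, -2.15 in Nicd OE and then -1.07 in seq&Nicd OE, against medians over all tested genes of 0.24, 0.50, -0.40 and -0.17 in the same order. In seq&Nicd OE relative to Nicd OE it was 0.97 for the members and 0.22 over all genes. The 4 comparisons with Ctrl share the same 3 Ctrl libraries. Scaling each library to a common median moved the all-gene median by -0.28 in ttk-RNAi, by -0.53 in dpn OE, by 0.37 in Nicd OE and by 0.12 in seq&Nicd OE, and by -0.28 between the Notch groups. With that scaling the background was 24.0% higher and 24.2% lower in ttk-RNAi, 22.3% and 24.9% in dpn OE, 18.2% and 18.5% in Nicd OE, then 20% and 20.3% in seq&Nicd OE and 13.2% and 13.0% between the Notch groups. No tested member that was called changed sign under any scaling.

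**Figure D4:**
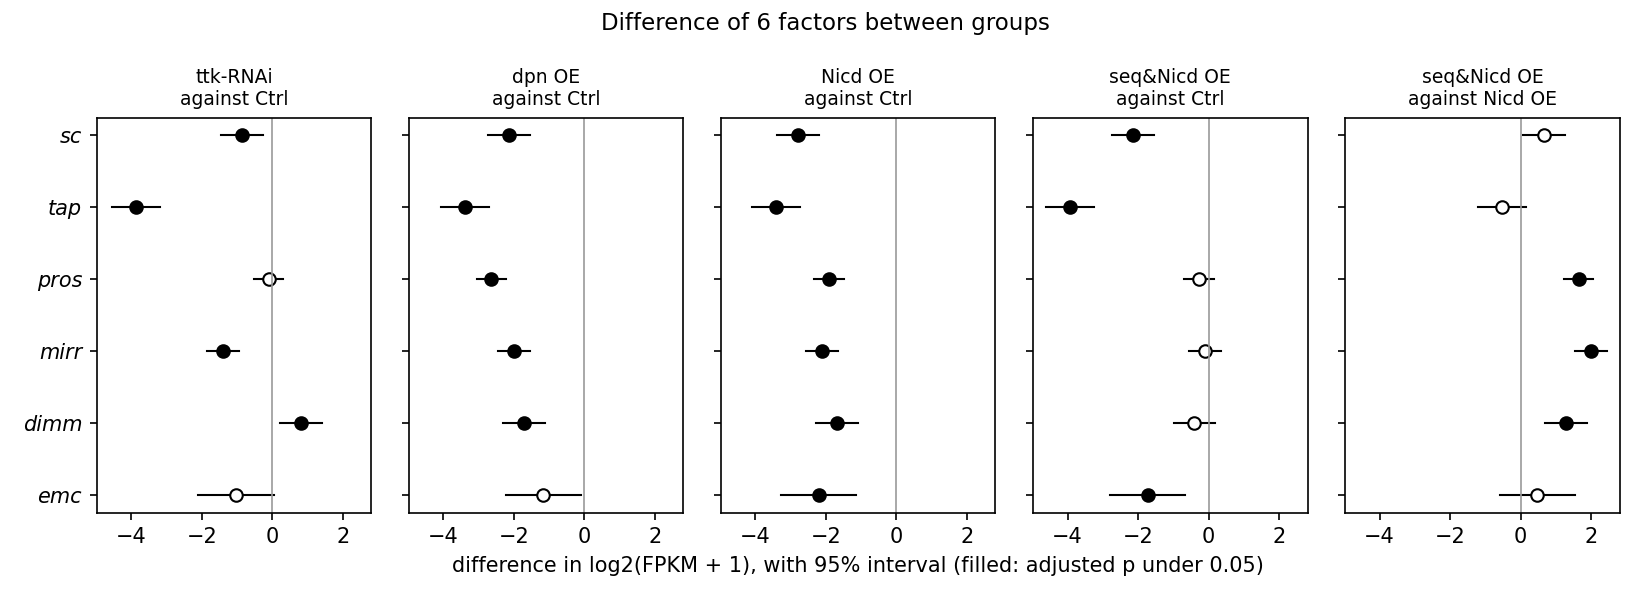
Difference in log2(FPKM + 1) of each tested member in 5 comparisons, the first group of each name minus the second, with 95% intervals (bars) and filled points where the adjusted p was under 0.05. Between seq&Nicd OE and Nicd OE, dimm, pros and mirr lie at 1.29 to 2.001, while the intervals of tap and emc cross 0.

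Spread among replicates differed by group. The coefficient of variation of the 6 tested members ran from 2.06% for dimm to 12.4% for tap in ttk-RNAi, against 24.9% for pros to 81.0% for emc in Ctrl. Within Ctrl the members did not move as a block, since replicate 1 was highest in sc and emc, replicate 2 in tap and replicate 3 in dimm, pros and mirr.

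Other genes of the proneural network were taken from a list of 26 regulators, partners and effectors, of which 25 had a row and 13 were tested. In ttk-RNAi 6 rose, ttk itself among them, and 2 fell, where 30.7% and 13.7% of all tested genes did, and the median log2 difference was 0.56, against 0.24 over all genes. With median scaling 4 rose and the list median was 0.22. In dpn OE 1 rose and 5 fell, beside 44.6% and 12.5% of all genes (median -0.40, against 0.50 over all). With median scaling none rose and 10 fell there (median -1.09), and the list median was -0.94 without Ctrl replicate 2 and -0.22 without Ctrl replicate 3. In Nicd OE none rose and 10 fell, beside 5.07% and 34.2% (median -1.34, against -0.40 over all). For seq&Nicd OE 2 rose and 5 fell, beside 13.3% and 21.2% (median -0.17, against -0.17 over all). That median was -0.08 without Ctrl replicate 1, -0.79 with 7 fallen without replicate 2, -0.02 without replicate 3, -0.08 with median scaling and 0.18 with equal FPKM sums. Relative to Nicd OE, in seq&Nicd OE 5 were higher and none lower, beside 15.8% and 3.85% (median 0.65, against 0.22 over all). The rises counted in ttk-RNAi and in seq&Nicd OE include Oli, which passed the level filter only through those groups.

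Phyllopod, an adaptor for ubiquitin-dependent loss of Tramtrack protein and a target of proneural factors, followed pros. phyl stood at 2.6 ± 0.158 FPKM in ttk-RNAi, 0.0348 ± 0.0320 in dpn OE, at 0.217 ± 0.259 in Nicd OE and at 3.56 ± 1.33 in seq&Nicd OE, against 3.27 ± 1.06 in Ctrl. It fell in dpn OE (adjusted p = 8.73e-06) and Nicd OE (adjusted p = 3.12e-05). It was 16.4-fold higher in seq&Nicd OE than in Nicd OE (adjusted p = 1.11e-05), or 50.6-fold without Nicd OE replicate 3.

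The Notch target E(spl)m8-HLH, a bHLH-O repressor of proneural genes, was low in Nicd OE. It stood at 19.4 ± 0.981 FPKM in ttk-RNAi, 0.286 ± 0.0316 in dpn OE, at 0.703 ± 0.692 in Nicd OE and at 62.7 ± 0.753 in seq&Nicd OE, against 13.2 ± 5.91 in Ctrl. It fell in dpn OE (adjusted p = 1.09e-06) and Nicd OE (adjusted p = 2.29e-06), and rose in seq&Nicd OE against both Ctrl (4.76-fold, adjusted p = 1.66e-05) and Nicd OE (89.3-fold, or 202-fold without Nicd OE replicate 3, adjusted p = 1.72e-09). The seq&Nicd OE libraries thus held the highest m8, beside a mean sc of 0.713 FPKM. In dpn OE the mean of m8 was lowest, beside a similar mean sc of 0.720 FPKM. A link between m8 and sc was not tested.

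The zinc-finger gene chn, a regulator of sc in bristle precursors, stood at 26.5 ± 0.735 FPKM in ttk-RNAi, 5.30 ± 0.755 in dpn OE, at 1.08 ± 0.400 in Nicd OE and at 9.77 ± 0.494 in seq&Nicd OE, against 16.2 ± 3.62 in Ctrl. It fell 15-fold in Nicd OE (adjusted p = 1.37e-07) and was 9.06-fold higher in seq&Nicd OE than there (adjusted p = 3.27e-07). The Notch ligand gene Delta stood at 4.41 ± 0.576 FPKM in ttk-RNAi, 133.8 ± 26.0 in dpn OE, at 2.79 ± 2.25 in Nicd OE and at 4.85 ± 0.651 in seq&Nicd OE, against 161, 14.8 and 48.4 FPKM in the Ctrl libraries. It fell 17.0-fold in ttk-RNAi (7.17-fold without Ctrl replicate 1, adjusted p = 0.000341) and did not pass in dpn OE (adjusted p = 0.051), where it passed without Ctrl replicate 1 (0.00067).

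The gene neur encodes a ubiquitin ligase for Notch ligands and marks neural precursors. It stood at 63.3 ± 2.87 FPKM in ttk-RNAi and 6.45 ± 2.59 FPKM in dpn OE, against 23.5 ± 16.1 FPKM in Ctrl. In Nicd OE neur was at 7.28 ± 2.89 FPKM (adjusted p = 0.0357, lost with median scaling at 0.0981). In seq&Nicd OE it was at 17.6 ± 3.83 FPKM and not called against Ctrl (adjusted p = 0.886). It rose in ttk-RNAi (adjusted p = 0.00764, or 0.0574 in a fit of the 2 groups alone). It fell in dpn OE (adjusted p = 0.0139), a call lost without Ctrl replicate 1 (0.0743) or 3 (0.0586), without dpn OE replicate 3 (0.0614) and in the 2-group fit (0.0888). The bHLH-O repressor gene hry (hairy) fell 7.24-fold in seq&Nicd OE (adjusted p = 0.000308), to 11.04 ± 3.60 FPKM there, against 79.9 ± 44.4 FPKM in Ctrl. It also fell 5.02-fold in Nicd OE, to 15.9 FPKM (adjusted p = 0.00157), and was not called between the Notch groups (adjusted p = 0.563).

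The bHLH gene Oli stood at 1.19 ± 0.0448 FPKM in ttk-RNAi and 1.05 ± 0.256 in seq&Nicd OE, against 0.153 ± 0.0491 in Ctrl. As a ratio of means it was 21.9-fold higher in seq&Nicd OE than in Nicd OE, where it stood at 0.0482 ± 0.0211. Oli stayed below 1 FPKM in every library of the other groups. It thus passed the level filter only through ttk-RNAi and seq&Nicd OE, where it was high, so no p is given for it. insc, which encodes an adaptor for asymmetric division, fell to 17.4 FPKM in ttk-RNAi, to 8.5 in Nicd OE and also to 7.99 in seq&Nicd OE, against 41.0 FPKM in Ctrl (adjusted p = 0.000543, 7e-06 and 1.89e-06).

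A second list held 25 genes of enteroendocrine fate and output, among them hormones and secretory proteins, of which 24 had a row and 21 were tested. In ttk-RNAi 3 rose and 11 fell, against 30.7% and 13.7% of all tested genes, with a median log2 difference of -1.69. In dpn OE 1 rose and 16 fell, against 44.6% and 12.5% (median -1.73). In Nicd OE 2 rose and 15 fell, against 5.07% and 34.2% (median -1.38). With equal FPKM sums 10 fell there, and the median was -0.84 with median scaling or equal sums. For seq&Nicd OE 5 rose and 10 fell, against 13.3% and 21.2% (median -0.98). Without Ctrl replicate 1 there were 3 rises, with equal sums 6 rises and 6 falls (median -0.41), and with quantile normalization the median was -0.55. Relative to Nicd OE, in seq&Nicd OE 7 were higher and none lower, against 15.8% and 3.85% (median 0.70). There it was 4 higher and 1 lower with median scaling (median 0.33), and 10 higher without Ctrl replicate 1 or 2.

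Hormone genes did not share one order of groups. NPF stood at 396 ± 18.2 FPKM in ttk-RNAi, 3102 ± 704 in dpn OE, at 937 ± 337 in Nicd OE and at 2151 ± 332 in seq&Nicd OE, against 6827, 55989 and 26068 FPKM in the Ctrl libraries. It fell in each (adjusted p = 1.83e-07 in ttk-RNAi, 0.000324 in dpn OE, with 1.26e-05 in Nicd OE and then 0.000122 in seq&Nicd OE). Among the manipulated groups the mean of NPF was highest in dpn OE and lowest in ttk-RNAi, where the mean of pros was lowest in dpn OE and highest in ttk-RNAi.

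The peptide gene Tk stood at 111 ± 10.9 FPKM in ttk-RNAi, 68.8 ± 5.65 in dpn OE, at 664 ± 70.6 in Nicd OE and at 1667 ± 661 in seq&Nicd OE, against 581, 1354 and 2748 FPKM in the Ctrl libraries. It fell 14.1-fold in ttk-RNAi (8.74-fold without Ctrl replicate 3, adjusted p = 5.39e-06) and 22.7-fold in dpn OE (14.1-fold without it, adjusted p = 4.11e-06). Orcokinin fell 28.0-fold in ttk-RNAi (adjusted p = 1.14e-10) and the prohormone convertase gene amon fell 20.4-fold (adjusted p = 5.64e-09). The peptide gene AstC fell 9.67-fold in ttk-RNAi (264 against 2558 FPKM in Ctrl, adjusted p = 5.86e-06). CCAP fell 12.6-fold (0.267 against 3.36 FPKM in Ctrl, adjusted p = 2.11e-05). Orcokinin, amon and CCAP were called lower than Ctrl in the other manipulated groups too. Their falls there were 3.45-fold to 7.15-fold, 3.2-fold to 8.22-fold and 4.27-fold to 6.01-fold in that order. Not every peptide gene of the list was called lower in ttk-RNAi. CCHa1 rose there (adjusted p = 0.00241), at 44.3 ± 6.89 FPKM, against 14.8 ± 2.32 FPKM in Ctrl. Dh31 (48.8 against 26.3 FPKM, adjusted p = 0.0618), AstA (20.9 against 11.8 FPKM, 0.38) and ITP (18.5 against 13.8 FPKM, 0.187) were not called. Nor were CCHa2 (13.5 against 17.7 FPKM, adjusted p = 0.37) and Mip (4.55 against 6.69 FPKM, 0.59).

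In dpn OE the secretory granule gene IA-2 fell 23.7-fold (14.0 against 332 FPKM in Ctrl, adjusted p = 3.24e-06) and the peptide gene AstC 10.1-fold (254 against 2558 FPKM, adjusted p = 1.35e-05). IA-2 also fell 5.12-fold in ttk-RNAi (adjusted p = 0.000726) and 2.83-fold in Nicd OE (0.0217, lost with median scaling at 0.265). The gene 7B2, whose product helps a prohormone convertase mature, fell 10.5-fold in dpn OE (adjusted p = 0.000197) and 10.5-fold in Nicd OE (adjusted p = 0.000435), or 4.69-fold and 4.71-fold without Ctrl replicate 2. It was 3.74-fold higher in seq&Nicd OE than in Nicd OE (117 against 31.2 FPKM, adjusted p = 0.0119), a call lost with median scaling (0.0923). Ptx1, a homeodomain gene, fell 4.55-fold in Nicd OE (12.2 ± 3.25 against 55.7 ± 11.4 FPKM in Ctrl, adjusted p = 1.01e-05). It also fell 2.54-fold in dpn OE (adjusted p = 0.00029) and 2.45-fold in seq&Nicd OE (0.000631, lost with equal FPKM sums at 0.0622).

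The peptide genes Dh31 and CCHa1 were highest in seq&Nicd OE. Dh31 stood at 178, 377 and 234 FPKM in seq&Nicd OE, against 2.52, 1.09 and 4.96 FPKM in Nicd OE (92.2-fold, or 146-fold without Nicd OE replicate 3, adjusted p = 3.11e-07). In Nicd OE it fell 9.21-fold relative to Ctrl (4.07-fold without Ctrl replicate 2, 14.6-fold without Nicd OE replicate 3, adjusted p = 0.00184). Against Ctrl, at 8.70, 55.7 and 14.5 FPKM, it was 10.01-fold higher in seq&Nicd OE (22.7-fold without Ctrl replicate 2, adjusted p = 7.61e-05). CCHa1 stood at 142 ± 37.3 FPKM in seq&Nicd OE and 57.1 ± 39.4 in Nicd OE, against 14.8 ± 2.32 in Ctrl, and was 9.63-fold higher in seq&Nicd OE than in Ctrl (adjusted p = 4.5e-06). CCHa2 was 7.95-fold higher there (140.4 against 17.7 FPKM in Ctrl, or 5.17-fold without seq&Nicd OE replicate 2, adjusted p = 3.11e-05). The synaptic vesicle gene nSyb stood at 42.9 ± 16.5 FPKM in seq&Nicd OE and 4.93 ± 0.888 in Nicd OE (8.71-fold, adjusted p = 1.78e-05).

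Markers of other cells moved beside the members. The 6 neuronal markers had sums from 42.3 to 45.9 FPKM in ttk-RNAi, from 7.71 to 7.98 in dpn OE, from 9.49 to 15.4 in Nicd OE and from 62.0 to 106.6 in seq&Nicd OE, against 29.1 to 46.7 in Ctrl, and nSyb and Syt1 of this list are also enteroendocrine markers. This sum was low in the groups where pros and dimm were low. The neuronal genes onecut and fne, which are not on the enteroendocrine list, stood at 6.90 and 5.26 FPKM in ttk-RNAi and at 8.5 and 11.3 FPKM in seq&Nicd OE, against 0.982 and 1.29 FPKM in Ctrl. No marker of the neuronal, progenitor or enterocyte lists was at 0 in all libraries of a group. The 5 progenitor markers had sums from 686 to 879 FPKM in ttk-RNAi, from 569 to 700 in dpn OE, from 165 to 218 in Nicd OE and from 470 to 520 in seq&Nicd OE, against 567 to 1319 in Ctrl. One gene, sna, a zinc-finger repressor, carried most of that sum in ttk-RNAi (571 FPKM) and seq&Nicd OE (378 FPKM), against 6.72 FPKM in Ctrl. The 8 enterocyte markers had sums from 268 to 304 FPKM in ttk-RNAi, from 564 to 631 in dpn OE, from 418 to 480 in Nicd OE and from 330 to 411 in seq&Nicd OE, against 239 to 411 in Ctrl. This sum was highest where pros was lowest, but 1 gene, Vha16-1, carried much of it (204 FPKM in ttk-RNAi, 165 in Ctrl). Of 7 enterocyte markers tested, 1 was called higher and 4 lower in ttk-RNAi, beside 30.7% and 13.7% of all tested genes. In dpn OE 3 were called higher and none lower, beside 44.6% and 12.5%. The part of these shifts in the members' differences was not tested. Visceral muscle markers summed to at most 3.81 FPKM in any library, germline markers to at most 3.36 and haemocyte and fat body markers to at most 11.5.

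The genes whose levels ran most like each member over the 15 libraries are given by Pearson's r of log2(FPKM + 1) among 4046 genes, as a description. For sc they were Glut4EF (0.945), Ptx1 (0.943) and kay (0.931), of which Ptx1 is on the enteroendocrine list. For tap they were Esyt2 (0.969), CG12934 (0.941) and Scp2 (0.927). For dimm they were CG12825 (0.969), plum (0.947) and fzr (0.938). For pros they were tutl (0.968), bru3 (0.952) and mbl (0.947), and for mirr Gabat (0.959), CG44325 (0.934) and Galphao (0.93). For emc they were sty (0.947), Dyb (0.91) and kis (0.895), where sty encodes a feedback inhibitor of receptor tyrosine kinase signalling. No gene was named for more than 1 member, and libraries of one group share their manipulation, so these values are not 15 independent points.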

How the data were processed

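The values deposited by the authors are FPKM, 1 per gene and library, normalized to gene length and library size. STAR 2.6.1a, DESeq2 and the build BDGP6 are named in the submitters' processing notes, and the counting tool and strand setting are not given in the sources used here. All columns were matched to libraries by title, with 0 columns left over. Identifiers were matched to BDGP6.54 symbols for 17252 of 17558 genes, and 306 stayed unnamed. Members, gene lists and tests were chosen with earlier results of these data known. Each member is named, with 3 genes most like it (group mean of at least 10 FPKM in one group or more) and, per list and comparison, the 4 called genes with the largest change, and effectors of a member. Some of those genes are also given in other groups. CCHa1, CCHa2, AstA, AstC, CCAP, Mip, Dh31 and ITP in ttk-RNAi were added after their values were seen.

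Values were taken as log2(FPKM + 1), which understates folds of low genes. The 8209 genes that reached 1 FPKM in 3 or more libraries were fitted with limma 3.58.1 in R 4.3.3, as 5 group means using a variance trend and two-sided tests on 10 residual degrees of freedom. Benjamini-Hochberg adjustment ran over all tested genes of a comparison. The script was tested on simulated data. Folds are ratios of mean FPKM. Reads were recovered from FPKM and exon length, with 97.8% to 98.3% of values of up to 20 reads whole within 0.02 reads. Where the lower group held few reads, the fold's interval is the exact 95% Poisson interval of those reads. No interval was computed for folds of sc with Nicd OE as the lower group, at 10 reads. Where a protein-coding gene shares all of its exon bases it was at 0 in every library in 92.7% of cases, so overlapping genes are undercounted; of the measured members pros alone shares exon bases (0.289%).

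Same-numbered libraries of seq&Nicd OE and Nicd OE deviated together from their group means (r = 0.2, 0.21 and 0.426 over genes). A replicate block was therefore fitted for that pair, although seq&Nicd OE replicate 2 was most like Nicd OE replicate 1. Other alternatives were pseudocount, filter, scaling, the 2 groups alone and leaving out each library.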

Additional observations from a re-analysis of the deposited data

How the results depend on the processing

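Of 681 member results recomputed under other settings, 643 kept direction and side of the threshold, 18 lost a call and 13 gained one. The other 7 changed sign while uncalled in both fits. For seq&Nicd OE against Ctrl these were mirr with median scaling (0.0376), quantile normalization (0.0524) and equal FPKM sums (0.399), and pros (0.243) and dimm (0.0311) with equal sums. With 1 library left out, mirr there ranged from -0.348 to 0.0756 (positive without Ctrl replicate 3), and pros in ttk-RNAi from -0.261 to 0.0641 (likewise). The number of members called in ttk-RNAi, 4 of 6, was 2 with a pseudocount of 0.1 and 2 in a fit of the 2 groups alone, and ranged from 2 to 5 when 1 library was left out. With a filter of 1 FPKM in at least 12 libraries only tap, pros and emc were tested, which gave 1 call in ttk-RNAi, 3 calls in dpn OE, 3 calls in Nicd OE and 1 call in seq&Nicd OE relative to Nicd OE. The calls that moved were those of sc and dimm in ttk-RNAi, of sc between the Notch groups and of emc, as given with their values. No filter added ase and l(1)sc and gave 6, 6, 7, 4 and 4 calls of 9 in the order of the comparisons. With the replicate block over all libraries the counts were 4, 5, 6, 3 and 3, as without it. The correlation of same-numbered libraries was at most 0.263 in comparisons with Ctrl, and in none of them was it above 0.1 for every number. Whether the numbers pair those libraries was not tested. A block within seq&Nicd OE and Nicd OE, chosen after seeing the data, gave 4 calls against 3 and added sc. The cause of these shifts was not tested. Depth limits ac, l(1)sc and ase, where 1 to 3 reads can set a value.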

Other observations

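A further 10 genes of the proneural network list stayed below 1 FPKM in all 15 libraries. They include the proneural bHLH genes ato, amos and cato, the senseless gene sens, the Iroquois genes ara and caup, which are relatives of mirr, and pnr, which regulates the achaete-scute complex in the thorax. Among the Iroquois genes mirr was thus the one above 1 FPKM. The ratio of dimm to pros within a library was from 0.930 to 1.01 in ttk-RNAi, from 0.751 to 1.17 in dpn OE, from 0.325 to 0.352 in Nicd OE and from 0.200 to 0.761 in seq&Nicd OE, against 0.334 to 0.549 in Ctrl. The ttk-RNAi and dpn OE libraries lay above every Ctrl library, although dimm and pros were high in one group and low in the other.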
